A study of Mus musculus with 16 samples.

Results

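Snapc3, Psip1, Ttc39b, Efcab7, Gng10, Rbm12b1 and Atp6v1g1 are 7 protein-coding genes of mouse chromosome 4, the chromosome that also carries the leptin receptor gene Lepr. They were chosen by their estimated counts: each is 1 of the 45706 gene rows of the count table, taken by name because its level differed between genotypes in at least 1 of the 2 RNA fractions measured. All 7 were found and all 7 passed the filter on low counts. The genotype differences are therefore given below as values with standard errors and no p-value.

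The study examined hypothalamic PNOC neurons, which make the neuropeptide precursor prepronociceptin, in mice with and without a deletion of Lepr in those cells. Ribosomes were purified by bacTRAP, in which a GFP-tagged ribosomal protein L10a, silent until Cre recombinase acts, is expressed from the ROSA locus and is precipitated together with the mRNA on its ribosomes. Hypothalami of 4 animals were pooled per sample, an aliquot of each lysate was kept as input, and the precipitate of that lysate gave the pulldown. Pools 1 to 4 carried the genotype label Control (Lepr-flox), with WT in their titles, and pools 5 to 8 the label Pnoc Lepr deletion. Both genotypes carried the L10a-GFP allele and Cre expressed in PNOC cells, were kept on a C57Bl/6N background, ate chow, and were sampled random fed at 12 weeks in the treatment protocol or 10 to 12 weeks in the extraction protocol. The labels do not say which part of Lepr was removed, nor how the control and deletion animals were related. No animal was shared between pools. The error within a group is thus a difference among pools, and input and pulldown of a pool are not independent.

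The 16 libraries held 64435952 to 78623636 estimated counts each. Pnoc was 3.23-fold higher in pulldown than in input (log2 1.69, SE 0.0859, edgeR quasi-likelihood adjusted p = 1.31e-12), all 8 pan-neuronal and all 7 GABAergic markers rose in pulldown, and all 8 astrocyte, 8 oligodendrocyte and 8 microglial markers fell. Lepr itself was not lower in the libraries labelled as deleted. It was higher in pulldown (log2 0.71, SE 0.121) and passed the edgeR test there, with groups apart, at 1.62 ± 0.185 CPM in the control pulldown and 2.62 ± 0.171 CPM in the pulldown of deletion pools (SD, n = 4). A gene total cannot show whether a deleted stretch is missing, so it checks nothing here. The number of passing genes depended on pools 1 and 5. Without both, 3363 genes in place of 108 passed the genotype comparison in pulldown, and 1957 in place of 41 passed it in input.

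The 7 genes have unrelated jobs. Snapc3 encodes a DNA-contacting subunit of the snRNA-activating protein complex, which starts transcription of small nuclear RNA genes. Psip1 encodes LEDGF, a chromatin reader that tethers other proteins to transcribed genes and is best known as the host factor that guides HIV integrase. Rbm12b1 encodes an RNA-binding protein. Gng10 encodes a gamma subunit of heterotrimeric G proteins, which relay signals from membrane receptors. Efcab7 belongs to the protein complex that anchors EVC and EVC2 at the base of the primary cilium, where they pass on Hedgehog signals. Atp6v1g1 is a subunit of the vacuolar ATPase, the proton pump that acidifies lysosomes and synaptic vesicles. Ttc39b promotes degradation of the sterol-sensing receptor LXR in mouse liver.

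The genes are spread over the chromosome, except for 3 that lie close together. Relative to the start of Lepr, in the GRCm38.p6 annotation, Rbm12b1 starts 89.6 Mb, Gng10 42.7 Mb and Atp6v1g1 38.2 Mb towards the beginning of the chromosome. Ttc39b (chr4:83220300-83324309), Snapc3 (chr4:83415711-83473019) and Psip1 (chr4:83455680-83486463) lie 18.5 to 18.3 Mb before Lepr, with Gm11413 between Ttc39b and Snapc3. Efcab7 (chr4:99829445-99912788) starts 1.89 Mb before it. Rbm12b1 occupies chr4:12138957-12148922, Gng10 chr4:59035156-59041899 and Atp6v1g1 chr4:63544765-63550701. The gene bodies of Snapc3 and Psip1 overlap by 17340 bp.

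The counts of 4 of the 7 genes were not whole. Salmon divides a read that matches transcripts of several genes, which leaves counts that are not whole. Within a tolerance of 0.01, Ttc39b, Efcab7 and Gng10 had whole counts in all 16 libraries, as did 57.8% of the 18530 genes tested. Snapc3 and Psip1 had divided counts in 16 of 16 libraries, Rbm12b1 in 15 and Atp6v1g1 in 14. Rbm12b1 has a neighbouring paralogue, Rbm12b2, whose counts were also divided in 15 libraries. No source used here gives the strand setting of the counting. Values of Snapc3, Psip1, Rbm12b1 and Atp6v1g1 are uncertain to the extent that reads were shared.

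RefSeq promoter sequences of build GRCm38.p6 were matched for 3 of the 7 genes, and they are shown because Snapc3 and Ttc39b lie within 1 Mb of each other and were both higher in Lepr-deletion pulldown, while Gng10 was higher there from a distant place. Each line gives the 250 bases before the gene start used in that table, on the strand of the gene, with motif matches in capitals. The windows are chr4:83417474-83417723 on the plus strand for Snapc3, chr4:83324190-83324439 on the minus strand for Ttc39b and chr4:59034906-59035155 on the plus strand for Gng10. The Snapc3 window and part of the Ttc39b window lie inside the annotated gene bodies. Psip1, Efcab7, Rbm12b1 and Atp6v1g1 were not matched.
Snapc3: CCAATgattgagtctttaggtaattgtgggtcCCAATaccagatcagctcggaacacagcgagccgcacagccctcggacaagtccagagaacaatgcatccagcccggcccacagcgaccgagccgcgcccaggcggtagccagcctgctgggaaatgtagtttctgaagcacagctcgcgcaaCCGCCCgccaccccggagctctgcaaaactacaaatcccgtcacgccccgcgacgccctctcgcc
Ttc39b: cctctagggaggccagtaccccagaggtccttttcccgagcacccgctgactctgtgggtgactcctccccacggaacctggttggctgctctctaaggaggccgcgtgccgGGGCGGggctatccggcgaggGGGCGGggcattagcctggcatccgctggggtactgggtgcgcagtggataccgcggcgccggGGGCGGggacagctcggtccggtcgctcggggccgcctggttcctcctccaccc
Gng10: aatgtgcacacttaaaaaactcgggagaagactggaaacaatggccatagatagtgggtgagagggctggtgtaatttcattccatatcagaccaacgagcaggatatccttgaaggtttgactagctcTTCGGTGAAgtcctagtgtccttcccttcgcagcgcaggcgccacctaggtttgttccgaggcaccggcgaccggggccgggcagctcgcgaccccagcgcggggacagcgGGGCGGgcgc
The motifs searched on both strands were the CCAAT box, the GC box with the letters GGGCGG, the TATA box with the letters TATAAA, the STAT dimer spacing TTCNNNGAA, the E-box with the letters CACGTG and the cAMP response element TGACGTCA. Snapc3 had 2 CCAAT matches and 1 GC box, on the reverse strand. Ttc39b had 3 GC boxes and no other match. Gng10 had 1 GC box and 1 match to the STAT spacing. Among 32851 promoter windows of the same length, 33.8% held a CCAAT box, 32.7% a GC box, 12.4% a TATA box, 7.02% the STAT spacing, 6.02% an E-box and 1.55% the cAMP element. GC content was 61.6% for Snapc3, 71.2% for Ttc39b and 58% for Gng10, against a median of 52.4% over all windows. A match is only a run of letters and says nothing of binding.

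Levels are given below as CPM, estimated counts scaled to a common library total with TMM factors, and differences as log2 fold changes of Lepr deletion over control. A gene is said to pass where edgeR's quasi-likelihood test gave an adjusted p below 0.05 over all genes tested. In pulldown, 6 of the 7 genes passed, 5 higher and 1 lower, where 0.641% of 16859 genes passed, 0.391% higher and 0.249% lower. In input, 4 of the 7 passed, 3 higher and 1 lower, where 0.231% of 17735 genes passed, 0.135% higher and 0.0959% lower. Snapc3, Psip1 and Efcab7 passed in both. The libraries of the genotypes did not overlap for 5 genes that were higher and 1 that was lower in pulldown, where 10% of all genes did not overlap, 5.08% higher and 4.93% lower. In input this held for 4 that were higher and 1 that was lower, where 6.88% of all genes did not overlap, 4.06% higher and 2.82% lower. All these counts follow from how the genes were picked. The fits that left out 1 pool, given below for each gene, reuse the same libraries and are no independent support. With scaling by library totals, the share of passing genes that were higher went from 66 of 108 to 30 of 76 in pulldown and from 24 of 41 to 94 of 108 in input.

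**Figure D1:**
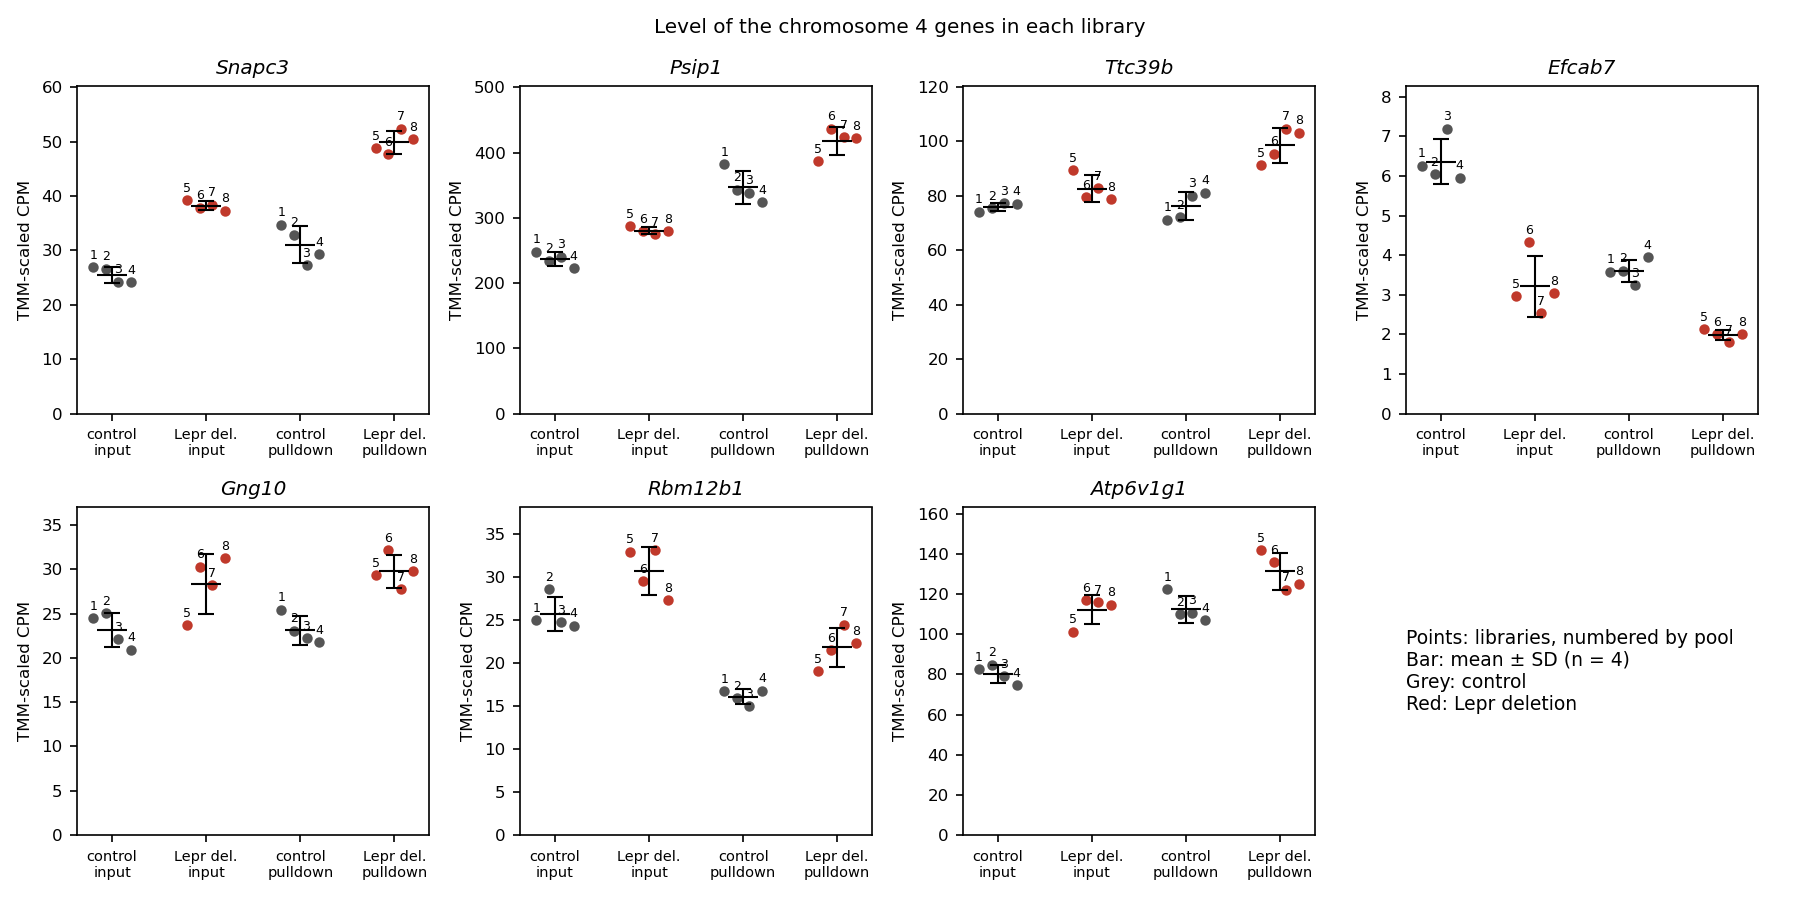
TMM-scaled CPM of the 7 genes in each of the 16 libraries, with points numbered by pool and bars giving mean ± SD (n = 4). The Snapc3 and Efcab7 groups are apart in both fractions, whereas Atp6v1g1 pool 7 in Lepr-deletion pulldown (122.2 CPM) sits at the level of control pool 1 (122.3 CPM).

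Snapc3 had the largest log2 difference of the 6 genes with higher values, in both fractions. In control input it stood at 26.9, 26.6, 24.3 and 24.2 CPM in pools 1 to 4, and in Lepr-deletion input at 39.3, 37.8, 38.4 and 37.3 CPM in pools 5 to 8. In control pulldown it stood at 34.8, 32.9, 27.2 and 29.3 CPM, and in Lepr-deletion pulldown at 48.7, 47.7, 52.4 and 50.5 CPM. Every Lepr-deletion library lay above every control library of its fraction. The fold change was 1.62 in pulldown (log2 0.70, SE 0.0713) and 1.50 in input (log2 0.58, SE 0.0548). Snapc3 passed in all 8 fits that left out 1 pool, in both fractions.

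None of the 9 tested genes of small nuclear RNA transcription other than Snapc3 passed in either fraction. Without pools 1 and 5, 2 passed in pulldown, a setting in which 3363 genes passed in all. Snapc1 and Snapc5, other subunits of the complex, had log2 values of 0.15 (SE 0.0495) and -0.09 (SE 0.0711) in pulldown. Pou2f1, a transcription factor that recruits the complex, had 0.22 (SE 0.0628), and Tbp, the TATA-binding protein, had -0.03 (SE 0.0616).

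Psip1, whose body overlaps that of Snapc3, was the most abundant of the 7 genes in CPM. Control input gave 248, 234, 241 and 223 CPM and Lepr-deletion input 287, 280, 275 and 280 CPM. Control pulldown gave 382, 343, 339 and 324 CPM and Lepr-deletion pulldown 387, 436, 424 and 422 CPM. The genotypes were apart in both fractions, in pulldown only narrowly, between control pool 1 and Lepr-deletion pool 5. The log2 difference was 0.28 in pulldown (SE 0.0535) and 0.25 in input (SE 0.0422). It passed in 2 of the 8 fits that left out 1 pool, in each fraction.

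None of the 10 other tested genes of the HDGF family and of LEDGF's partners passed. The paralogues Hdgf, Hdgfl2 and Hdgfl3 had log2 values of -0.10 (SE 0.0501), 0.06 (SE 0.0457) and -0.02 (SE 0.0428) in pulldown. Pogz, a partner that binds the same domain of LEDGF, had 0.09 (SE 0.0514).

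Ttc39b was higher after deletion in pulldown on the count scale. Control input gave 74.2, 75.5, 77.3 and 77.1 CPM and Lepr-deletion input 89.6, 79.4, 82.9 and 78.9 CPM. Control pulldown gave 71.3, 72.1, 80.1 and 81.2 CPM and Lepr-deletion pulldown 91.2, 95.5, 105 and 103 CPM. The groups were apart in both fractions, in input only narrowly. The log2 difference was 0.38 in pulldown (SE 0.0638) and 0.12 in input (SE 0.049), where it did not pass. Leaving out 1 pool kept the pulldown call in 3 of 8 fits. Of the 10 other tested genes of the TTC39 family and LXR-driven sterol efflux none passed. The paralogues Ttc39a and Ttc39c had -0.13 (SE 0.0769) and 0.07 (SE 0.102) in pulldown, and Ttc39d was too low to test. Apoe, the main lipid carrier of the brain, had 0.53 with an SE of 0.159, and Scd1, a fatty acid desaturase, 0.01 with an SE of 0.0732.

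The length of the Ttc39b transcripts counted also differed, a readout added after the values were seen. Dividing a gene's estimated count by its TPM gives the mean effective length of the transcripts to which Salmon assigned the reads. It is expressed here relative to the median gene of the library. For Ttc39b it was 1.56 ± 0.0337 in control input and 1.83 ± 0.0909 in Lepr-deletion input, and 1.36 ± 0.05 in control pulldown and 1.63 ± 0.0687 in Lepr-deletion pulldown (SD, n = 4). Groups were apart in both fractions, as they were for 2.54% of 13634 genes in input and 21% in pulldown. At least as large a difference was seen in 1.68% of genes in input and 1.31% in pulldown.

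Once divided by length, Ttc39b hardly differed. Its TPM was 23.6 ± 0.639 in control input and 23.3 ± 1.88 in Lepr-deletion input, and 52.7 ± 4.09 in control pulldown and 57.9 ± 6.39 in Lepr-deletion pulldown (SD, n = 4). On counts rescaled from TPM its log2 difference was 0.13 in pulldown (SE 0.0736) and -0.11 in input (SE 0.0713), so the sign in input depends on the scale.

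Snapc3 moved the other way in length. Its relative effective length was 0.632 ± 0.0175 in control input and 0.547 ± 0.0119 in Lepr-deletion input, and 0.566 ± 0.0133 in control pulldown and 0.530 ± 0.00353 in Lepr-deletion pulldown (SD, n = 4). The groups were apart in both fractions, and a difference at least as large was seen in 2.19% of all genes in input and 6.64% in pulldown. On rescaled counts the Snapc3 difference was larger than on counts, with log2 values of 0.79 (SE 0.0669) in pulldown and 0.79 (SE 0.0519) in input.

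Psip1 was slightly longer after deletion, at 0.967 ± 0.0232 against 0.920 ± 0.0104 in input and 0.946 ± 0.00813 against 0.905 ± 0.00863 in pulldown (SD, n = 4). The groups were again apart in both fractions, but a difference at least as large was seen in 10.6% of all genes in input and 10.2% in pulldown. Its rescaled log2 differences were 0.22 (SE 0.0574) in pulldown and 0.17 (SE 0.0471) in input. The length of the other 4 genes overlapped between genotypes in both fractions, except Atp6v1g1 in pulldown, where the means were 0.365 and 0.362.

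**Figure D2:**
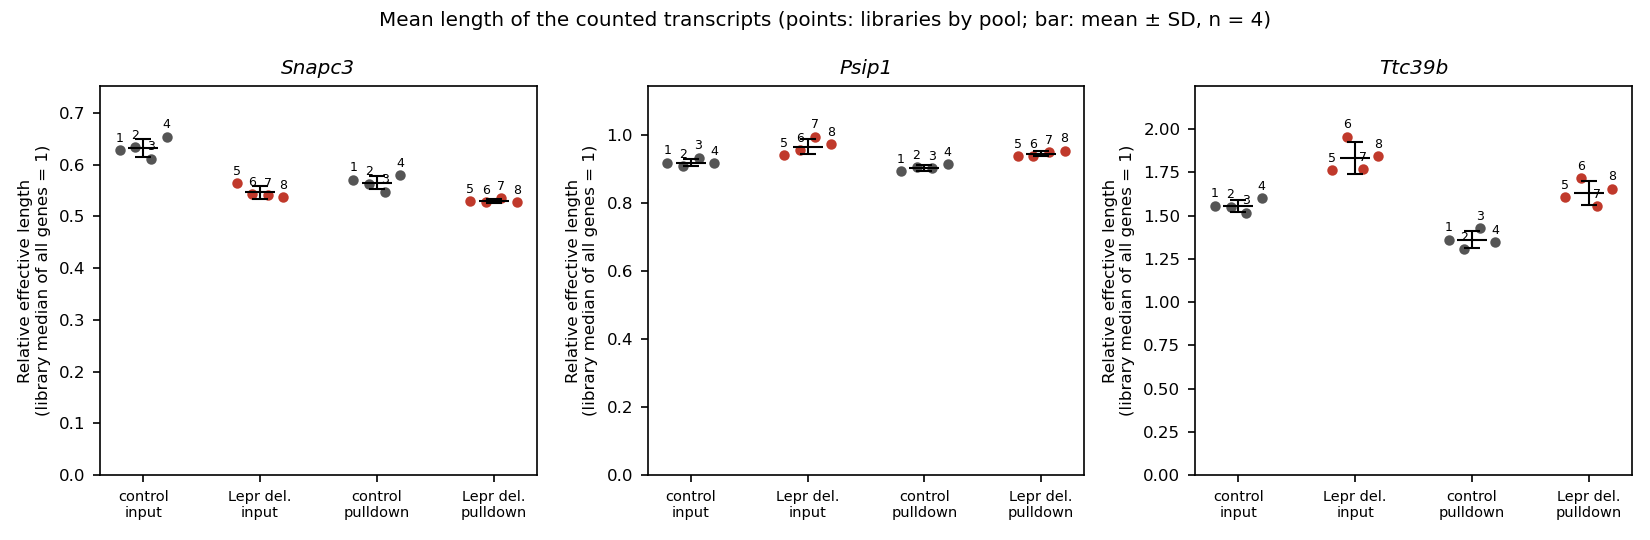
Relative effective length (library median = 1) of Snapc3, Psip1 and Ttc39b in each library, with points numbered by pool and bars giving mean ± SD (n = 4). Ttc39b is longer and Snapc3 shorter in Lepr-deletion than in control pools, in input (1.83 against 1.56, and 0.547 against 0.632) and in pulldown.

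Efcab7 was the only one of the 7 with lower values after deletion. Control input gave 6.26, 6.05, 7.19 and 5.95 CPM and Lepr-deletion input 2.97, 4.33, 2.54 and 3.04 CPM. Control pulldown gave 3.58, 3.61, 3.24 and 3.94 CPM and Lepr-deletion pulldown 2.13, 2.00, 1.80 and 2.00 CPM. No Lepr-deletion library reached a control library of its fraction. The level was 1.80-fold lower in pulldown (log2 -0.85, SE 0.107) and 1.98-fold lower in input (log2 -0.98, SE 0.153). It was also the least abundant of the 7, with 150 to 445 counts per library. The pulldown call held in all 8 fits that left out 1 pool and the input call in 4, but on rescaled counts and on both TPM scales Efcab7 passed in neither fraction.

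Itgb3bp, a centromere protein gene that ends 229 bp before Efcab7, had log2 differences of 0.00 (SE 0.104) in pulldown and -0.13 (SE 0.105) in input. Pgm1, a sugar phosphate enzyme, had 0.07 (SE 0.156) and 0.11 (SE 0.153). It was placed on the other side of Efcab7 by its symbol alone, and its gene identifier was not checked. The counts carry older symbols for some genes, such as Hdgfrp2 for Hdgfl2, so the Pgm1 values may be those of a gene elsewhere. None of the 14 other genes of the EVC zone and Hedgehog signalling passed in either fraction. Iqce, a partner of Efcab7 in the cilium, had -0.14 (SE 0.0952) in pulldown and -0.07 (SE 0.0987) in input, and the receptor Ptch1 had 0.08 (SE 0.0652) and -0.11 (SE 0.0491).

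Gng10 was higher after deletion in pulldown and overlapped in input. Control input gave 24.5, 25.1, 22.1 and 20.9 CPM and Lepr-deletion input 23.7, 30.3, 28.2 and 31.3 CPM. Control pulldown gave 25.4, 23.1, 22.2 and 21.8 CPM and Lepr-deletion pulldown 29.3, 32.2, 27.7 and 29.8 CPM. Only pool 5 kept the input groups from being apart. The log2 difference was 0.38 in pulldown (SE 0.0628) and 0.30 in input (SE 0.0867), and it passed in pulldown in 2 of 8 fits that left out 1 pool.

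Of the other G protein beta and gamma subunits, none of 14 passed in pulldown and none of 15 in input. The abundant neuronal subunits Gng3 and Gng2 had log2 values of -0.19 (SE 0.055) and 0.03 (SE 0.0395) in pulldown, and Gnb1 had 0.02 (SE 0.0398). Gng13 had -0.43 (SE 0.119) and Gng5 0.19 (SE 0.0976).

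Rbm12b1 was likewise higher in pulldown. Control input gave 25.0, 28.6, 24.7 and 24.3 CPM and Lepr-deletion input 32.9, 29.5, 33.1 and 27.3 CPM. Control pulldown gave 16.7, 15.9, 15.005 and 16.8 CPM and Lepr-deletion pulldown 19.0, 21.5, 24.4 and 22.3 CPM. The groups were apart in pulldown and overlapped in input through control pool 2 and Lepr-deletion pool 8. The log2 difference was 0.45 in pulldown (SE 0.0763) and 0.26 in input (SE 0.0747), with the pulldown call kept in 2 of 8 fits that left out 1 pool. The paralogue Rbm12b2 had 0.31 (SE 0.113) in pulldown and -0.10 (SE 0.0844) in input, and Rbm12 had 0.24 (SE 0.0668) and 0.11 (SE 0.054), none of which passed.

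Atp6v1g1 was higher after deletion in input and overlapped in pulldown. Control input gave 82.7, 84.8, 78.97 and 74.6 CPM and Lepr-deletion input 101, 117, 116 and 115 CPM. Control pulldown gave 122.3, 110, 111 and 107 CPM and Lepr-deletion pulldown 142, 136, 122.2 and 125 CPM. The input groups were apart, and the pulldown groups touched at control pool 1 and Lepr-deletion pool 7. The log2 difference was 0.48 in input (SE 0.057), which passed in all 8 fits that left out 1 pool, and 0.24 in pulldown (SE 0.0575), which did not pass.

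None of 19 other vacuolar ATPase genes passed in either fraction by edgeR, and DESeq2 called 2 in input. Without pools 1 and 5 there were 8 in pulldown and 7 in input. In that setting the passing genes rose to 3363 and 1957 over all genes, so these 8 and 7 are no result about the pump. The neuronal G subunit Atp6v1g2 had log2 values of 0.04 (SE 0.0371) in input and -0.05 (SE 0.0576) in pulldown, and Atp6v1g3 was too low to test. The catalytic subunit gene Atp6v1a had 0.04 (SE 0.0365) and 0.12 (SE 0.0483), and Atp6v1e1, a stalk subunit, 0.21 (SE 0.0592) and 0.11 (SE 0.0433). Atp6v0d1, a subunit joining ring and stalk, had 0.15 (SE 0.0384) in input. Over the 7 lists together, 0 of 78 genes passed in pulldown and 0 of 79 in input by edgeR, which is near the background of 0.641% and 0.231% and is no result about the lists. At an unadjusted p below 0.05 there were 18 and 15, where 3340 of all 16859 and 2490 of all 17735 genes had such a value. DESeq2 called 8 and 2 of the list genes, and 1050 and 359 of all genes.

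In TPM, which divides by length and so allows levels of different genes to be set side by side within a fraction, control pulldown ranked Psip1 at 361 ± 21.9, Atp6v1g1 at 290 ± 10.6, Gng10 at 60.4 ± 3.19, Ttc39b at 52.7 ± 4.09, Snapc3 at 51.6 ± 4.56, Rbm12b1 at 14.5 ± 1.22 and Efcab7 at 9.58 ± 1.01 (SD, n = 4). Ttc39b and Snapc3 overlapped and the other neighbours in that order did not. In Lepr-deletion pulldown Snapc3 came next after Psip1 and Atp6v1g1 with 89.9 ± 5.28, above Gng10 with 79.5 ± 4.19 (SD, n = 4). In Lepr-deletion input Atp6v1g1 and Psip1 overlapped, with 158 ± 13.7 and 150 ± 5.36 TPM (SD, n = 4).

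Whether the transcripts are enriched in the ribosome pulldown relative to input is a question the choice of genes did not use. It was tested as pulldown minus input averaged over both genotypes. A transcript that does not rise in pulldown can still be carried by ribosomes of PNOC neurons. Of the 7 genes 6 passed, 4 higher and 2 lower in pulldown, where 72.5% of 18530 genes passed, 34.1% higher and 38.4% lower. That share is near the background. Psip1 rose in pulldown by 0.56 on the log2 scale (SE 0.0359, edgeR adjusted p = 4.04e-11), Atp6v1g1 by 0.36 (SE 0.0429, edgeR adjusted p = 3.97e-07) and Snapc3 by 0.33 (SE 0.0464, edgeR adjusted p = 2.65e-06). Ttc39b rose by 0.13 (SE 0.0398, edgeR adjusted p = 0.00713). Efcab7 fell by 0.76 (SE 0.0974, edgeR adjusted p = 8.94e-07) and Rbm12b1 by 0.58 (SE 0.0561, edgeR adjusted p = 1.79e-08). Gng10 differed by 0.03 (SE 0.0576), which did not pass (edgeR adjusted p = 0.612).

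The scaling sets the zero of this comparison. The median gene lay at -0.02, at 0.46 with scaling by library totals and at 0.67 on log2(TPM + 1), and the share of passing genes that were higher went from 6325 of 13434 to 11206 of 15441 with library totals. On log2(TPM + 1) Efcab7 and Rbm12b1 turned to 0.29 and 0.30, and lay at -0.39 and -0.37 from the median gene. With TMM they lay at -0.74 and -0.56 from that median, and Psip1 at 0.59. In bulk samples, fewer cells of a type and less RNA per cell cannot be told apart.

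The lists around each gene were read against the same background in pulldown minus input. Of the vacuolar ATPase genes other than Atp6v1g1, 14 of 19 rose and 4 fell, with a median of 0.47, where 34.1% of all genes rose, 38.4% fell and the median was -0.02. Atp6v1g2 rose by 0.79 and Atp6v0c, the proton-carrying ring subunit, by 0.84, while Atp6v0e fell by 1.42. Of the Hedgehog genes 12 of 14 fell and 1 rose, with a median of -2.23, including Ptch1 at -2.45 and Smo at -3.08. Efcab7 stood at -0.76 in the same comparison.

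Of the G protein beta and gamma genes 7 of 15 rose and 4 fell, with Gng3 at 0.68 and Gng12 at -2.59. Of the sterol efflux list 2 of 10 rose and 6 fell, with Apoe at -4.72 and Scd1 at -4.12, both glia-rich transcripts in brain. In the small nuclear RNA list 3 of 9 rose and 3 fell, and in the HDGF list 4 of 10 rose and 3 fell. The G protein, small nuclear RNA and HDGF counts were close to the shares over all genes. Rbm12b2 fell by 0.37 and Rbm12 did not pass at -0.09. Rises and falls here are on the TMM scale, and on log2(TPM + 1) the median of all genes lay 0.70 higher.

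The ratio of pulldown to input was also taken within single pools. For Ttc39b the log2 ratio ran from -0.07 to 0.07 in control pools and from 0.03 to 0.39 in Lepr-deletion pools. For Atp6v1g1 it ran from 0.37 to 0.57 in control pools and from 0.08 to 0.49 in Lepr-deletion pools. For Psip1 the ranges were 0.49 to 0.62 and 0.43 to 0.64, and for Snapc3 0.17 to 0.37 and 0.31 to 0.45. All these ranges overlapped. In the fit of all 16 libraries the difference of enrichment was 0.25 for Ttc39b (SE 0.0796) and -0.26 for Atp6v1g1 (SE 0.0857), and between 0.02 and 0.18 for the other 5. None of the 7 passed by edgeR, where 0.0108% of 18530 genes passed, and DESeq2 called 0. An unadjusted p below 0.05 was seen for 2 of the 7, and for 1660 of all 18530 genes.

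**Figure D3:**
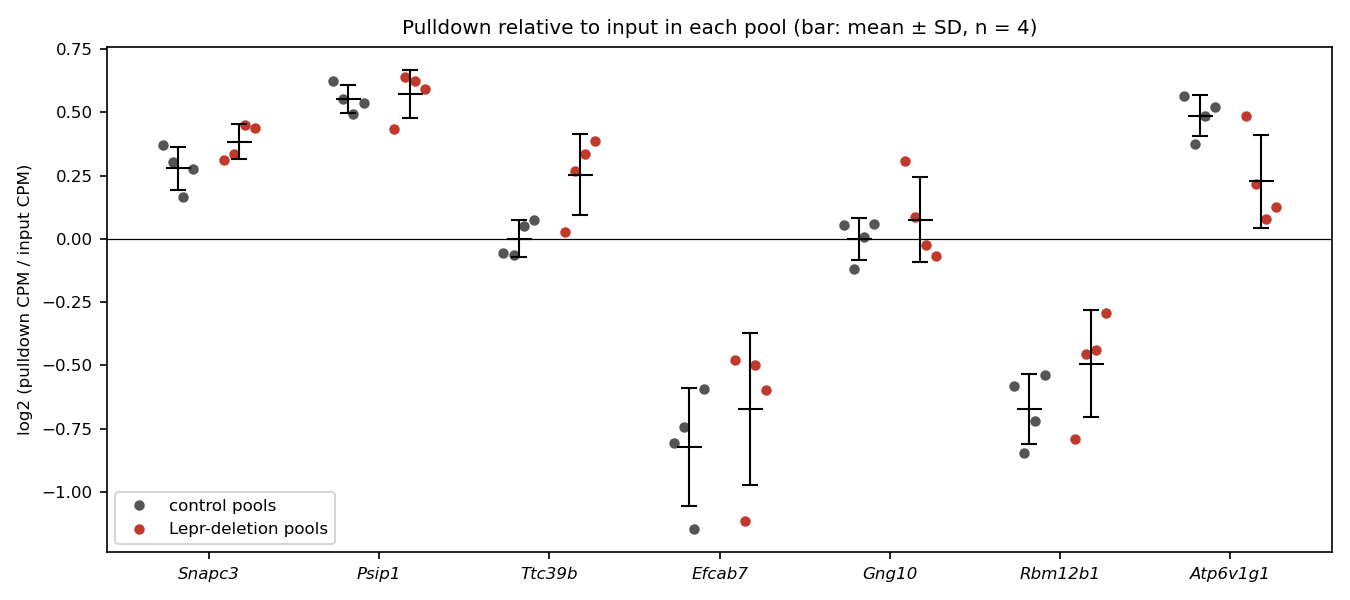
Log2 ratio of pulldown to input CPM in each pool, control in grey and Lepr deletion in red, with bars giving mean ± SD (n = 4). Psip1, Snapc3 and Atp6v1g1 lie above 0 and Efcab7 and Rbm12b1 below 0 in all 8 pools. The genotype ranges overlap for Ttc39b (-0.07 to 0.07, 0.03 to 0.39) and Atp6v1g1 (0.37 to 0.57, 0.08 to 0.49).

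The share of genes that passed was counted by chromosome. In pulldown 19 of 1016 tested genes passed (1.87%), 16 of them higher, and 0.577% passed on all other chromosomes. Without the 7 genes, 13 of 1009 passed (1.29%), a share below the 1.53% of chromosome 19 and above that of every other chromosome. Of those 13, 7 were Gm genes of a single stretch, and outside it 6 of 1001 passed (0.599%). In input 12 of 1033 passed (1.16%), against 0.156% elsewhere, 8 of 1026 (0.78%) without the 7 genes, and 3 of 1019 (0.294%) outside the stretch as well. The 0.78% was above the share of every other nuclear chromosome, the next being chromosome 2 with 0.379%. Lepr was among the passing genes in pulldown. The 7 genes were picked for differing, the stretch was set aside after the values were seen, and no other chromosome was trimmed. The shares left on chromosome 4 are thus lowered by that choice. No test was made of these shares.

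On chromosome 4, 8 further genes passed in both fractions. Acer2, an alkaline ceramidase, was lower with log2 values of -1.57 (SE 0.11) in pulldown and -0.91 (SE 0.122) in input. Tusc1 was higher with 1.12 (SE 0.174) and 1.29 (SE 0.231), and Nr4a3, an orphan nuclear receptor induced by neuronal activity, with 0.57 (SE 0.103) and 0.44 (SE 0.0709). The remaining 5, Gm20938, Gm21093, Gm5859, Gm10600 and Gm3883, lie together about 59 to 60 Mb before Lepr. Gm10600 had the largest difference, at 6.16 (SE 0.621) and 5.65 (SE 0.46).

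Around Snapc3, the members Psip1 and Ttc39b were the 2 of 11 tested genes that passed in pulldown. In input Psip1 was the only 1 of 11. These members were picked for a genotype difference, so their passing together shows nothing about the region. Members were picked for passing, so the genes left around them had fewer to show. Within 1 Mb of any member, 0 of 53 other genes passed in pulldown and 0 of 59 in input by edgeR. At an unadjusted p below 0.05 there were 14 and 8, where 3340 of all 16859 and 2490 of all 17735 genes had such a value. DESeq2 called 6 and 0 of these neighbours, and 1050 and 359 of all genes. The median difference of these neighbours was 0.06 in pulldown and 0.02 in input, against -0.01 and -0.00 for all genes. Ccdc171, next to Psip1, had 0.49 (SE 0.128) in pulldown and 0.06 (SE 0.0669) in input. Fam92a, 4219 bp after Rbm12b1, had -0.26 (SE 0.0697) and -0.04 (SE 0.0659), and Dnajc25, before Gng10, had 0.27 (SE 0.171) and 0.11 (SE 0.137). Whrn, before Atp6v1g1, had -0.23 (SE 0.0704) and -0.24 (SE 0.0976).

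**Figure D4:**
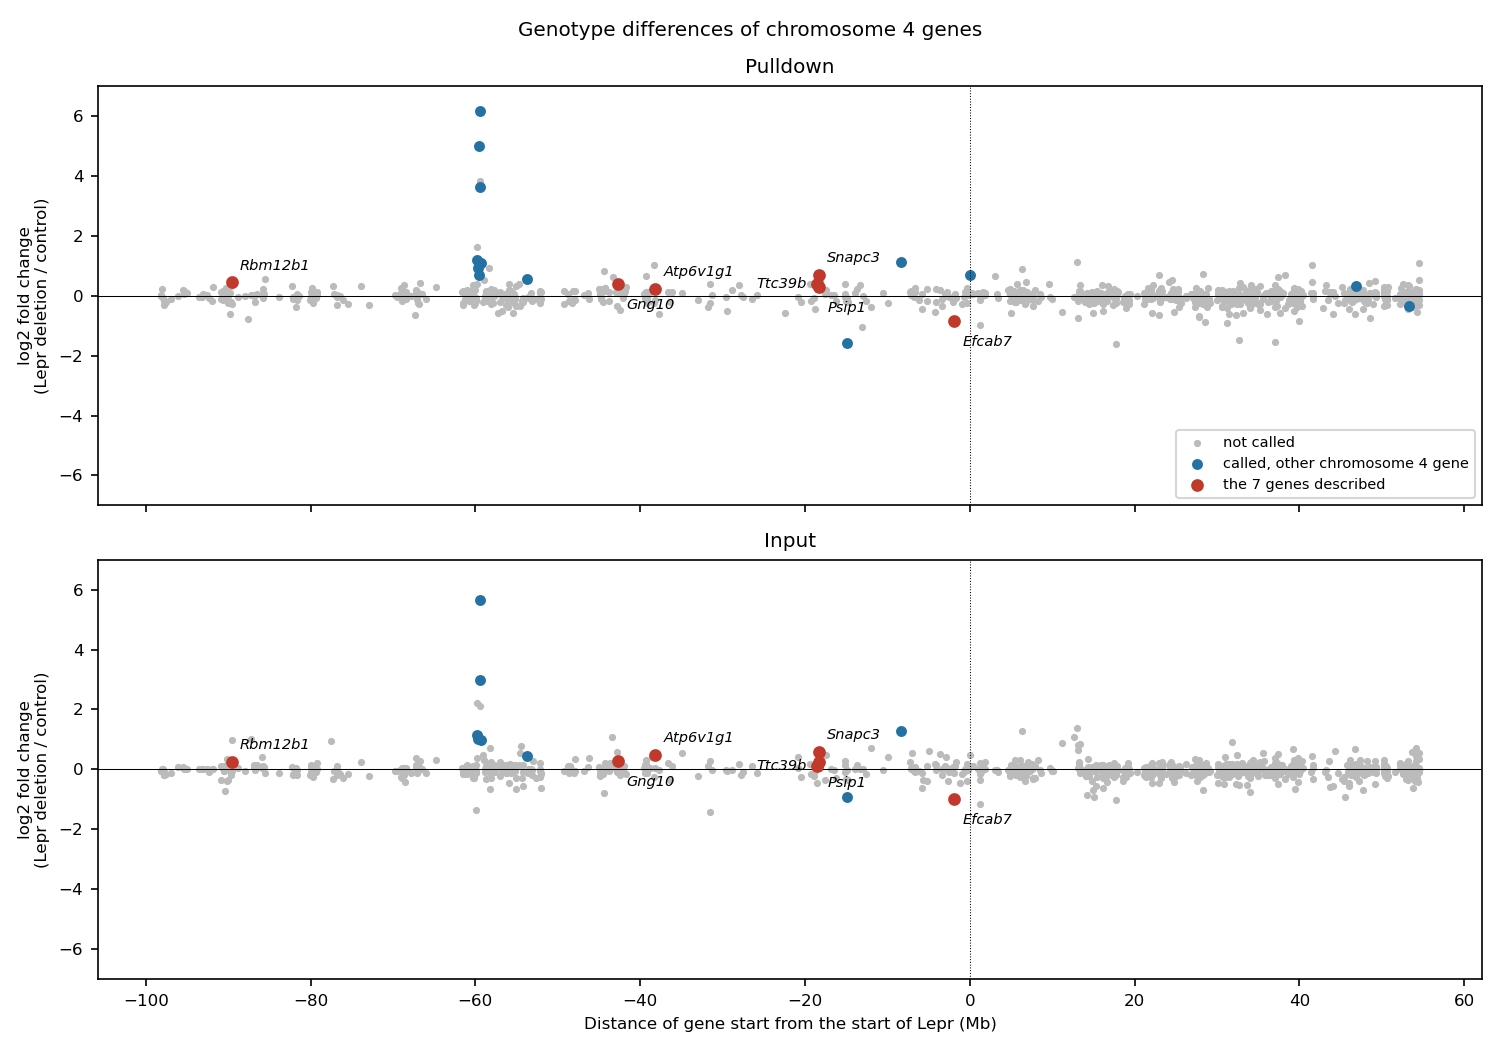
Log2 fold change of Lepr deletion over control for each tested chromosome 4 gene, against distance from the start of Lepr in Mb, in pulldown (top) and input (bottom). The 7 genes (red) lie between -89.6 and -1.89 Mb, among genes that did not pass (grey), with other passing genes in blue.

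The profiles most like those of the 7 genes were found by Pearson r of log2 CPM over the 16 libraries, centred within each fraction, among 13774 genes. The libraries share pools and fall into 2 genotypes, so r is a description. Snapc3 was nearest to Gm17167 (r = 0.964), Gm3883 (0.963) and Zscan26 (0.955), and Psip1 to Gtpbp4 (0.954), Cacul1 (0.953) and Bclaf1 (0.951). Ttc39b was nearest to Mapt (0.925), Bsn (0.922) and Rab3c (0.918), and Efcab7 to Vegfa (0.88), Acer2 (0.878) and AI854517 (0.875). Gng10 was nearest to Cacul1 (0.927), Psmd9 (0.923) and Ube2n (0.916). Rbm12b1 was nearest to Fam46a (0.953), Trim2 (0.95) and Srrm4 (0.932), and Atp6v1g1 to Eif4a2 (0.935), Pcbp2 (0.922) and Ypel5 (0.918). Of the 20 nearest genes, 6 lay on chromosome 4 for Snapc3, 4 for Psip1, 3 for Rbm12b1 and 0 for Ttc39b. For Efcab7, Gng10 and Atp6v1g1 it was 1 each. Only the gene itself was left out of its own list, so other members, all on chromosome 4, could be counted. The share of chromosome 4 among the 13774 genes was not taken. Of the 16859 genes tested in pulldown, a different set, 1016 were placed on chromosome 4. The members were picked for a genotype difference, so their nearest profiles lean to genes with such a difference. These numbers are therefore no result about the chromosome.

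Some cell type markers also differed between the genotypes. Summed astrocyte markers, 8 genes, were 2420 to 2775 CPM in control input and 2105 to 2366 in Lepr-deletion input, where Gja1 passed as lower. The list was mixed in input, where 3 of the 8 had higher values, such as Gfap with a log2 value of 0.25 (SE 0.0691). In pulldown all 8 had higher values, Gja1 with 0.59 (SE 0.164), and none passed. The summed astrocyte markers overlapped there, at 135 to 153 CPM in control pools and 133 to 165 CPM in deletion pools. Summed GABAergic markers, 7 genes, were 2662 to 3267 CPM in pulldown of control pools and 3265 to 3566 CPM in that of deletion pools. Within that list no gene passed, and Dlx6 and Slc32a1 had log2 values of -0.51 (SE 0.14) and -0.30 (SE 0.16). Summed pan-neuronal markers, 8 genes, were 13548 to 15081 CPM in pulldown of control pools and 12750 to 13511 CPM in that of deletion pools. None passed, and that list was mixed, with higher values for 3 of the 8. Its median log2 value was -0.03, against -0.01 for all genes. Summed vascular markers, 8 genes, were 3.84 to 6.98 and 6.02 to 16.3 CPM in pulldown, where Kdr passed as higher and 1 marker was at 0 in every control pulldown library. Cartpt passed as lower in pulldown. The sum of 5 sex-linked genes ran from 41.0 to 84.2 CPM in pulldown of control pools and from 67.7 to 155 CPM in that of deletion pools. The part of these differences in the values of the 7 genes was not tested.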

How the data were processed

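Salmon 1.10.1, DESeq2 1.38.3 and the build GRCm38 are named in the submitters' processing notes. The authors deposited estimated counts per gene, TPM per gene, counts rescaled from TPM, and log2 fold changes with p-values for their own comparisons, which are not printed here. Strand setting and annotation release are not given in the sources used here.

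Counts were rounded and tested with edgeR 4.0.16 (R 4.3.3; quasi-likelihood, two-sided, TMM, filterByExpr with minimum count 10 and total 15, Benjamini-Hochberg over all genes at 0.05), each genotype comparison on the 8 libraries of its fraction and enrichment on all 16. DESeq2 1.42.0, limma 3.58.1 and other settings were alternatives. Scripts were tested on simulated data. Positions came from RefSeq GRCm38.p6, which placed 33808 of 45706 rows by symbol or synonym. A floor of 3 counts is 0.0321 to 0.0562 CPM and covers counting error only.

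The members and lists were chosen with earlier results of these data known. Named are the members, paralogues, up to 5 further most abundant list genes, nearest neighbours, the 3 most similar profiles and chromosome 4 genes passing in both fractions; Pou2f1, Atp6v0d1, Atp6v0e and the single marker genes were named after their values were seen. Input and pulldown of a pool share a lysate per the labels' protocols. Deviations of same-numbered libraries correlated at 0.0447 to 0.364, above 0.1 in 6 of 8 pairs, and the pool was a block in an alternative.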

Additional observations from a re-analysis of the deposited data

Results flagged for a closer look

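In control input, Rbm12b1 stood at 28.6 CPM in pool 2, away from the other 3 pools by 0.843 of the range of the group. In Lepr-deletion input, Atp6v1g1 stood at 101 CPM in pool 5, below the other 3 pools by 0.861 of the range. These were 2 of 28 groups of 4 libraries examined, and chance alone picks out about 1 in 20 groups.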

How the results depend on the processing

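The number of genes passing between genotypes in pulldown, 108, was 266 with no filter on low counts, 1050 with DESeq2, 16 on rescaled counts, 30 on log2(TPM + 1), 22 on log2(TPM + 0.1), 3363 without pools 1 and 5, 508 with all 16 libraries in the fit, and 19 to 1262 leaving out 1 pool (556 without pool 1, 1262 without pool 5). In input, 41 became 108 with library totals, 261 with no filter, 359 with DESeq2, 11 on rescaled counts, 22 and 20 on the TPM scales, 1957 without pools 1 and 5, and 19 to 402 leaving out 1 pool. Of the 7 genes, the 6 passing in pulldown became 1 on rescaled counts, 2 on each TPM scale and 2 to 7 leaving out 1 pool, and the 4 in input became 2, 2 and 2, and 2 to 5. They were 2 without pool 2, 3, 6, 7 or 8 and 3 without pool 4 in pulldown, and 2 without pool 2, 3, 7 or 8 in input. Neighbours passing in pulldown, 0, became 2 with no filter, 6 with DESeq2, 16 without pools 1 and 5, 6 with all 16 libraries and 0 to 4 leaving out 1 pool; in input they became 7 without pools 1 and 5 and 0 to 2. For the enrichment difference, 2 genes became 4 with RLE factors, 4 with library totals, 6 with no filter, 28 with DESeq2, 0 on rescaled counts, 6 on log2(TPM + 1), 87 without pools 1 and 5, and 1 to 3 leaving out 1 pool. The RBM12 list, with 1 of 2 passing in enrichment, had 2 at a mean of 1 CPM, on rescaled counts and in control pools alone, 0 in Lepr-deletion pools alone, and 1 to 2 leaving out 1 pool. The cause of these moves was not tested.

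Enrichment turned sign for Gng10 at a mean of 1 CPM (-0.029), without pools 1 and 5 (-0.010) and in control pools alone (-0.018), for Ttc39b in control pools alone (-0.015), and for Efcab7 (0.29 and 0.33) and Rbm12b1 (0.30 and 0.32) on the 2 TPM scales. Leaving out 1 pool kept 12974 to 13383 genes passing in enrichment, and 6 to 6 of the 7. With the pool as a replicate block, 13762 genes and 6 of the 7 passed in enrichment and 4 genes in its difference, which changed no call of the 7. Leaving out 1 pool gave list counts in pulldown of 0 to 1, 0 to 2 and 0 to 3.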
